A study of Xenopus tropicalis x Xenopus laevis and Xenopus tropicalis with 6 samples.

Results

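The 2931 features described here are the transcript models of *Xenopus laevis* that the count table places on its fused chromosome 9_10, 1670 on the L copy and 1261 on the S copy, out of 45244 features of both species in the table. A feature was taken when its model belongs to *X. laevis* and its chromosome is given as 9_10L or 9_10S, so no measured value chose it. The 3 hybrid libraries (40, 41 and 42) came from whole embryos of *X. tropicalis* eggs fertilized with *X. laevis* sperm, in which these features are paternal, and the 3 *X. tropicalis* libraries (37, 38 and 39) came from whole embryos of that species. Both groups were collected 7 hours after fertilization, and polyA-selected RNA was sequenced. The *X. tropicalis* embryos hold no *X. laevis* chromosome, so their counts on the 2931 features are the background of the measurement.

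*X. laevis* is an allotetraploid frog whose genome keeps a long (L) and a short (S) version of each ancestral chromosome. Its 9_10L and 9_10S each correspond to a fusion of the chromosomes that *X. tropicalis*, a diploid relative, carries separately as 9 and 10. A gene kept on both is a homeolog pair, written with the suffixes .L and .S. At this age a normal *X. tropicalis* embryo is in gastrulation, its own genome has begun to be transcribed, and the egg still supplies much of the RNA. In both groups here the RNA from the egg is *X. tropicalis* transcripts. The labels give the age and no stage, so the stage the hybrids had reached is not known.

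Library totals ran from 71435751 to 100025277 counts over both species. Levels are given as CPM, counts divided by those totals and multiplied to a common library size, scaled with TMM factors from the *X. tropicalis* features, and are not corrected for transcript length, which the table does not hold. The *X. tropicalis* features of the 24 gastrula markers for mesoderm, endoderm, organizer, ventral side and ectoderm were each above 1 CPM in both groups, while those of the blood marker and both muscle markers present averaged below 1 CPM. On the *X. tropicalis* features alone, 21 of the 24 had a lower mean in hybrids, the exceptions being sox17b.1, grhl1 and foxi1, and the sums of all 5 lists were lower in hybrids without overlap. With the *X. laevis* features of the same names added, the sums of the mesoderm, endoderm and ventral lists overlapped between groups and those of the organizer and ectoderm lists did not. The added features numbered 9 for the 6 mesoderm, 8 for the 5 endoderm and 6 for the 4 ventral markers. They numbered only 3 for the 4 organizer and 4 for the 5 ectoderm markers. Paternal copies under other names would not be counted, and their part was not tested. The 4 organizer markers summed to between 208 and 329 CPM in hybrids, against between 529.9 and 549 CPM in *X. tropicalis*, and the 5 ectoderm markers to between 809 and 972 CPM in hybrids, against between 1053 and 1379.8 CPM in *X. tropicalis*. The muscle markers then summed to between 0.118 and 3.68 CPM in hybrids, against between 0 and 0.146 CPM in *X. tropicalis*. The part of such differences in the results below was not tested. In whole embryos, fewer cells of a type and less RNA per cell cannot be told apart.

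Paternal transcripts of 9_10 were detected in every hybrid library. The 2931 features took 1.5%, 1.71% and 1.73% of all counts in hybrids, against 0.431%, 0.468% and 0.467% in *X. tropicalis*. The groups did not overlap, and their means were 1.65% ± 0.129 in hybrids and 0.455% ± 0.0206 in *X. tropicalis* (SD, n = 3 each), with an exact two-sided permutation p of 0.1, the smallest that 3 libraries against 3 can give.

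Of the 2931 features, 1138 (38.8%) were above background by the edgeR quasi-likelihood test at an adjusted p under 0.05. The test reached 2674 of them, those with at least 10 counts over the 6 libraries, and called 42.6%, beside 39.3% of all 24726 *X. laevis* features tested. The share was therefore near that of the paternal genome as a whole. It was 38.4% of the features of 9_10L (642 features) and 39.3% of those of 9_10S (496 features). Most members were low: the median hybrid level was 0.836 CPM, 374 features reached 10 CPM, 23 reached 100 CPM, and 119 had no count in any hybrid library. Among the 1138 features called, 317 had no count in the *X. tropicalis* libraries.

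**Figure D1:**
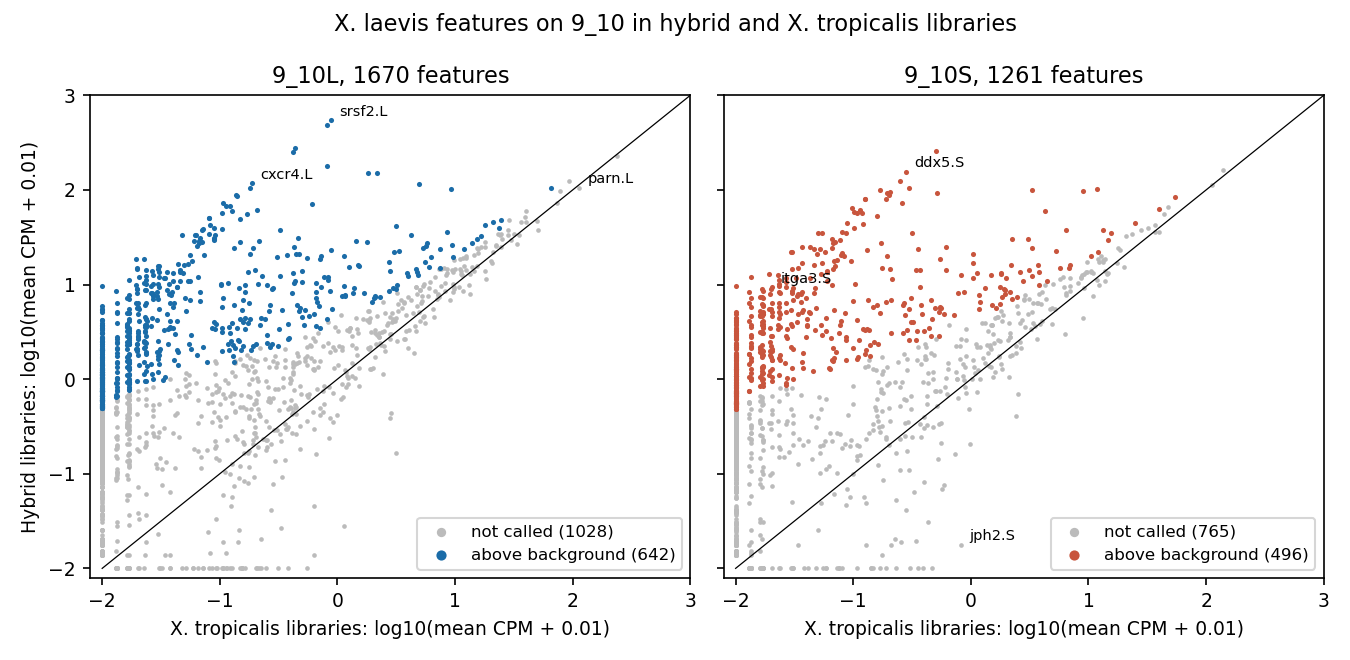
Each point is an X. laevis feature of 9_10L (left) or 9_10S (right), with its mean level in the 3 hybrid libraries (vertical axis) against its mean level in the 3 X. tropicalis libraries (horizontal axis), both as log10(CPM + 0.01); the line marks equal levels. Coloured points are the 642 and 496 features above background, and grey points were not called. Points near the line, such as parn.L, which was not called, were counted at similar levels in embryos without the X. laevis genome.

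The background was of more than 1 kind. Among the 49 features that were above background and reached 50 CPM in hybrids, 33 had an *X. tropicalis* level between 0.1% and 0.3% of their hybrid level, which gives the straight upper edge of the plot of both groups' levels. Their log2 fold changes of about 9 therefore sit at a common ratio, and why the ratio is shared was not tested. Other features were counted in *X. tropicalis* libraries at a level close to that in hybrids or above it. For 283 members the background was between 50% and 100% of the hybrid level. For 341 it was higher than the hybrid level, and these include the 119 with no count in any hybrid library. The 4 gene symbols with the highest background were parn.L, rac1.L, map2k4.L and tm9sf4.L. For parn.L, a poly(A) ribonuclease, hybrids had 114, 114 and 89.6 CPM and *X. tropicalis* 121, 104 and 115 CPM. For rac1.L, a small GTPase of the cytoskeleton, hybrids had 117, 111 and 143 CPM and *X. tropicalis* 98.0, 92.7 and 87.3 CPM. None of the 4 passed the test (edgeR adjusted p from 0.138 to 0.850), so a paternal contribution could not be told from background for them.

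The highest member was srsf2.L, an SR protein that binds exons during splicing, with 497, 589 and 563 CPM in hybrids, against 0.971, 0.824 and 0.824 CPM in *X. tropicalis* embryos (log2 9.30 ± 0.26 SE, edgeR adjusted p = 1.99e-24). Its level was 85.8% of that of the *X. tropicalis* srsf2 feature in the same libraries, which itself did not pass the test between groups (log2 -0.29, edgeR adjusted p = 0.222). ddx5, a DEAD-box RNA helicase, was high from both copies: ddx5.L had 153, 187 and 201 CPM in hybrids, and ddx5.S had 136, 146 and 186 CPM, each at most 1.27 CPM in any *X. tropicalis* library. The *X. tropicalis* ddx5 feature stood at 1630.5 CPM in hybrids, so ddx5.L amounted to 11% of it and ddx5.S to 9.55%. rbm39, a splicing cofactor, reached 104 CPM from rbm39.L and 101 CPM from rbm39.S on average, and srsf6.S, another SR protein, reached 99.0 CPM.

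Over the list of spliceosome and RNA binding symbols, 25 of 32 members (78.1%) were above background, none was lower and 7 did not pass, a share near the 75.8% of the 178 such features on all *X. laevis* chromosomes. Their median net level was 12.2 CPM, against 6.61 CPM for the list over all chromosomes. hnrnpa3.L, a pre-mRNA binding protein, was among the low ones called, at 2.34 CPM. ddx18.L, a helicase of ribosome assembly, had 26.1, 26.5 and 21.7 CPM in hybrids but 30.2, 22.5 and 20.9 CPM in *X. tropicalis*, and was not called.

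Both copies of cxcr4, the receptor for the chemokine that guides migrating cells, were among the 10 highest features of their chromosome. It had 138, 106 and 106 CPM from cxcr4.L in hybrids, against 0.184, 0.136 and 0.215 CPM in *X. tropicalis* embryos (log2 9.34 ± 0.38 SE, edgeR adjusted p = 1.55e-20). cxcr4.S had 98.5, 92.0 and 96.8 CPM in hybrid embryos and at most 0.256 CPM in *X. tropicalis*. snai1.S, a zinc finger repressor of mesoderm and neural crest, averaged 79.9 CPM ± 14.9 in hybrid embryos and 0.115 CPM ± 0.0784 in *X. tropicalis* (SD, n = 3 each). mafb.S, a bZIP factor of hindbrain segmentation, averaged 79.5 CPM ± 4.59 in hybrid embryos and 0.179 CPM ± 0.0959 in *X. tropicalis*. znf750, a zinc finger factor of epidermal differentiation in mammals, reached 88.1 CPM from znf750.L and 79.9 CPM from znf750.S. krt.S, a keratin, had 67.8, 84.1 and 139.8 CPM in hybrids, above its background of 5.97, 11.6 and 9.47 CPM.

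slc26a11.L, an anion transporter, was also among the 10 highest features of 9_10L. It had 119, 163 and 168 CPM in hybrids, against 3.44, 1.06 and 0.936 CPM in *X. tropicalis*. ccnt2, a cyclin of the kinase that releases paused RNA polymerase, averaged 102 CPM in hybrids from each copy, with a background of 9.25 CPM for ccnt2.L and 11.8 CPM for ccnt2.S. metrnl.L, a secreted factor, averaged 68.0 CPM in hybrids, gs17.L, a gene first known from *Xenopus* gastrulae, 67.5 CPM, and gspt1.L, a translation termination factor, 61.3 CPM, each with a background under 0.2 CPM.

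Members with only a model number were also among the highest, and the table gives a human name for some. The human names below were looked up after the levels were seen. Xelaev18043762m, with the human name *SLC16A3*, a lactate transporter, had 404, 446 and 623 CPM in hybrids, against 0.849, 0.720 and 0.870 CPM in *X. tropicalis*, the second highest member. At least 4 of the leading models carry the name *H3F3A*, a replacement histone, of which Xelaev18044072m on 9_10L averaged 274 CPM and Xelaev18047575m on 9_10S 259 CPM. These features belong to a family of near-identical copies, so reads may have been divided among them. The models named for *FZD7*, a Wnt receptor, averaged 252 CPM on 9_10L (Xelaev18044942m) and 104 CPM on 9_10S (Xelaev18047362m). Those named for *SALL4*, a zinc finger factor of early embryonic cells, averaged 152 CPM on 9_10L (Xelaev18043463m) and 92.8 CPM on 9_10S (Xelaev18046188m).

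Nearly all listed members of the proteasome and of the cytosolic ribosome were above background. Of the 13 proteasome members, 12 were above background, beside 73.6% of all 53 on *X. laevis* chromosomes, and the highest, psme3.L, a regulator of the proteasome core, had 9.63, 13.4 and 23.6 CPM in hybrid embryos and at most 0.0511 CPM in *X. tropicalis*. The 6 ribosomal protein members were all above background, beside 75.8% of the 66 on all chromosomes, with means between 0.488 CPM (rpl23.L) and 4.91 CPM (rpl19.S) in hybrids. Of 24 members for respiratory chain subunits, their assembly factors and mitochondrial ribosomal proteins, 11 were above background (40.9% over all chromosomes), 5 of the 8 mitochondrial ribosomal proteins and 6 of the 16 others. The highest was ndufs1.S, a subunit of respiratory complex I, at 10.1 CPM. The ubiquitin list had 22 of 31 members above background (48.7% over all chromosomes), the kinase list 6 of 13 (46.2%), the zinc finger list 12 of 22 (55.2%), the histone and chromatin list 5 of 12 (55%) and the solute carrier list 8 of 27 (35.9%). No member of any of these lists was lower in hybrids.

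The cell cycle list held members with clear paternal signal and members near background, in the same share as elsewhere. Of its 34 members, 20 (58.8%) were above background, beside 58.6% over all chromosomes. cdca7.L, which acts with chromatin remodelling in dividing cells, had 38.2, 34.2 and 46.1 CPM in hybrid embryos and at most 0.0920 CPM in *X. tropicalis*. In contrast, cdc27.L, a subunit of the anaphase-promoting complex, had 24.2, 29.9 and 47.5 CPM in hybrid embryos and 19.3, 24.9 and 24.8 CPM in *X. tropicalis*, and was not called (edgeR adjusted p = 0.163). plk1.S, a mitotic kinase, was above background at 12.8 CPM, which is 1.97% of the 649 CPM on the *X. tropicalis* plk1 feature in the same hybrids.

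Among early developmental regulators, 17 of 25 members were above background, beside 58.2% over all chromosomes. foxj1, the master regulator of motile cilia, stood out by level: foxj1.S had 53.8, 64.5 and 65.8 CPM and foxj1.L 56.6, 58.1 and 65.2 CPM in hybrids, against at most 0.159 CPM for either in *X. tropicalis*. The *X. tropicalis* foxj1 feature had 12.8, 12.4 and 16.6 CPM in hybrid embryos and 7.03, 15.9 and 14.8 CPM in *X. tropicalis*, so each paternal copy was over its level in every hybrid library. bmp7.1.L, a BMP ligand, averaged 9.59 CPM, against 0.877 CPM on its *X. tropicalis* feature in hybrids. nog.L, the BMP antagonist noggin, averaged 5.27 CPM, against 4.86 CPM on its *X. tropicalis* feature.

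The Hox genes of these chromosomes, hoxd on the part related to 9 and hoxb on the part related to 10, were low at this age. Of 15 members, 3 were above background (16.2% over all chromosomes), and none exceeded 2.36 CPM in any hybrid library. hoxd8.L had 1.46, 2.35 and 2.36 CPM in hybrid embryos and at most 0.0187 CPM in *X. tropicalis*. hoxd1.L had 0.943, 0.588 and 1.33 CPM in hybrids and no count in *X. tropicalis*, so that hybrids were at least 92.1-fold higher when 3 counts over the *X. tropicalis* group are taken as the floor. hoxb7.S had 0.728, 0.118 and 0.587 CPM in hybrids and no count in *X. tropicalis*, and its call was lost when any of 5 of the 6 libraries was left out (edgeR adjusted p from 0.0725 to 0.154).

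Of the 2931 members, 3 fell below their *X. tropicalis* level in hybrids (beside 0.275% of all *X. laevis* features tested), that is, *X. tropicalis* embryos gave more counts on these *X. laevis* models than hybrids did. jph2.S, a junctophilin of muscle membranes, had 0, 0.0235 and 0 CPM in hybrids, against 1.06, 0.292 and 1.07 CPM in *X. tropicalis*. The model Xetrov90024189m.L, named for the muscle protein *TTN*, had 0.0539, 0.317 and 0.0926 CPM in hybrids, against 4.49, 1.59 and 3.25 CPM in *X. tropicalis* (edgeR adjusted p = 0.00258). Xetrov90024048m.L, named for *UNC80*, had 0.0539, 0 and 0 CPM in hybrids, against 2.71, 0.636 and 0 CPM in *X. tropicalis*. The call of jph2.S was lost in 3 of the 6 fits without a library and that of Xetrov90024048m.L in 3 (edgeR adjusted p up to 0.431). In the order above, the *X. tropicalis* features of the same names averaged 0, 0.663 and 0.382 CPM in hybrids. In *X. tropicalis* embryos they averaged 0.0904, 4.28 and 0.565 CPM. Whether the background within hybrids equals that in *X. tropicalis* embryos was not tested.

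To set the fused chromosomes beside the rest, the summed background was taken from the summed level in each hybrid library and divided by all features of the chromosome. The net level of 9_10L was 3.81, 4.76 and 5.19 CPM per feature (mean 4.59 ± 0.705, SD, n = 3), rank 5 of the 9 L chromosomes. That of 9_10S was 3.70, 4.37 and 4.86 CPM per feature (mean 4.31 ± 0.582), rank 6 of the 9 S chromosomes. The 6 other L chromosomes apart from 3L and 4L had means between 3.88 and 5.56 CPM per feature, and the 8 other S chromosomes between 3.87 and 6.60 CPM, so both fused chromosomes lay within the range of the rest. The L chromosomes 3L and 4L stood apart at 1.52 and 1.11 CPM per feature, with 17.4% and 18.3% of their features above background.

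**Figure D2:**
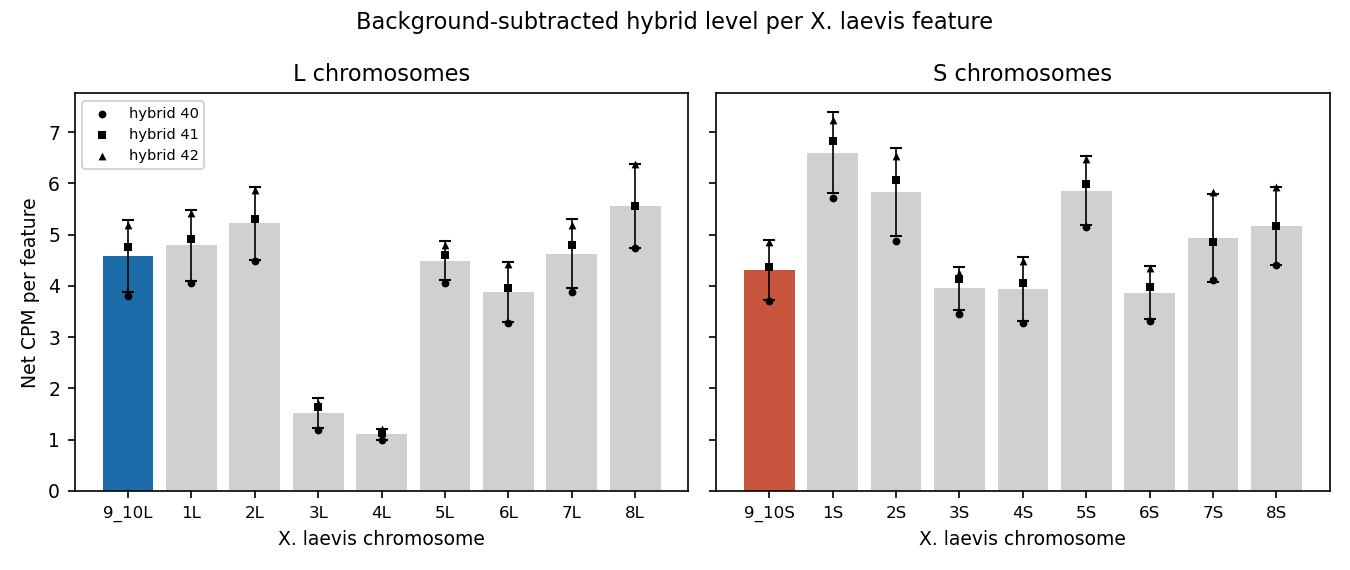
Bars show the mean net level, in CPM per feature after background subtraction, of each X. laevis chromosome in the 3 hybrid libraries, with 9_10L (left panel) and 9_10S (right panel) coloured and other chromosomes grey; symbols are the libraries and error bars the SD. The fused chromosomes, at 4.59 and 4.31 CPM, lie within the range of the others, while 3L and 4L lie at 1.52 and 1.11 CPM.

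Relative to the mean of the other L chromosomes within the same library, 9_10L was higher by 0.23 on the log2 scale in the mean, and higher in 3 of 3 libraries. Without 3L and 4L in that mean, the log2 difference was -0.06. For 9_10S the log2 difference from the other S chromosomes was -0.22, lower in 3 of 3 libraries. The net level per feature of S over that of L was -0.04, -0.12 and -0.10 on the log2 scale. Each of these 4 differences had an exact two-sided sign-flip permutation p of 0.25, the smallest that 3 libraries allow. Both the S-over-L difference and that of 9_10S from other S chromosomes turned round when the 10 highest features of each chromosome were left out (log2 0.10 and 0.03).

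A few features held much of the output. The 10 highest features made up 31.0% of the 7664 CPM net of 9_10L and 22.2% of the 5433 CPM net of 9_10S. The first 39 features of 9_10L and the first 43 of 9_10S made up 50% of the net level of their chromosome.

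The feature names give a way back to the unfused state, since 1695 members share their name with exactly 1 *X. tropicalis* feature. That feature lay on chromosome 10 for 618 members, on chromosome 9 for 845, on an unplaced scaffold for 222 and on another chromosome for 10. Taken in order of model number, the members matched to 10 came first and those matched to 9 after them on both copies. On 9_10L a single boundary separated all 854 names matched to 9 or 10, between rnf135.L and LOC100487583.L, with 36 features between them. On 9_10S it separated 608 of 609 names, between znf207.S and igfbp5.S, and the exception was rab37.S. The sources used here do not say that model numbers follow position, so the order is used as an order and not as a map. Members on unplaced scaffolds mostly followed it too: scaffold_39, with 23 members, and scaffold_113, with 22, lay entirely in the part matched to 10, and of 46 scaffolds with 2 or more members 40 fell in a single part. Many of the 46 hold only 2 members, which can be the L and S copies of 1 gene, so these say little about the order.

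Members of both origins were called. On 9_10L the share above background was 50.7% of the 343 members matched to 10 and 43.1% of the 511 matched to 9. On 9_10S it was 46.5% of the 275 matched to 10 and 48.2% of the 334 matched to 9. Among members with no such match it was 27.7% on 9_10L and 31.1% on 9_10S. These shares were not tested against each other.

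The summed level of paternal transcripts, relative to *X. tropicalis* genes of the same names, was higher for chromosome 10 than for chromosome 9. For L features matched to 10, the summed net level was 8.01%, 10% and 10.1% of the summed level of the same-named *X. tropicalis* features in the same hybrid libraries. For L features matched to 9 it was 4.71%, 5.85% and 5.57%. The 2 origins did not overlap on L, with means of 9.38% ± 1.18 for 10 and 5.38% ± 0.593 for 9 (SD, n = 3). On S it was 6.76%, 7.71% and 8.80% for 10 and 4.90%, 5.83% and 5.91% for 9, again without overlap (means 7.76% ± 1.02 and 5.54% ± 0.562). Members matched to unplaced scaffolds stood at 10.9% ± 1.05 on L and 7.93% ± 0.694 on S. The *X. tropicalis* level in these percents includes RNA from the egg, so a percent does not measure paternal output alone. That level averaged 70.8 CPM per feature for 10 and 64.7 CPM for 9 on L, and 69.1 and 79.0 CPM on S. The part of egg RNA in the percents was not tested.

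**Figure D3:**
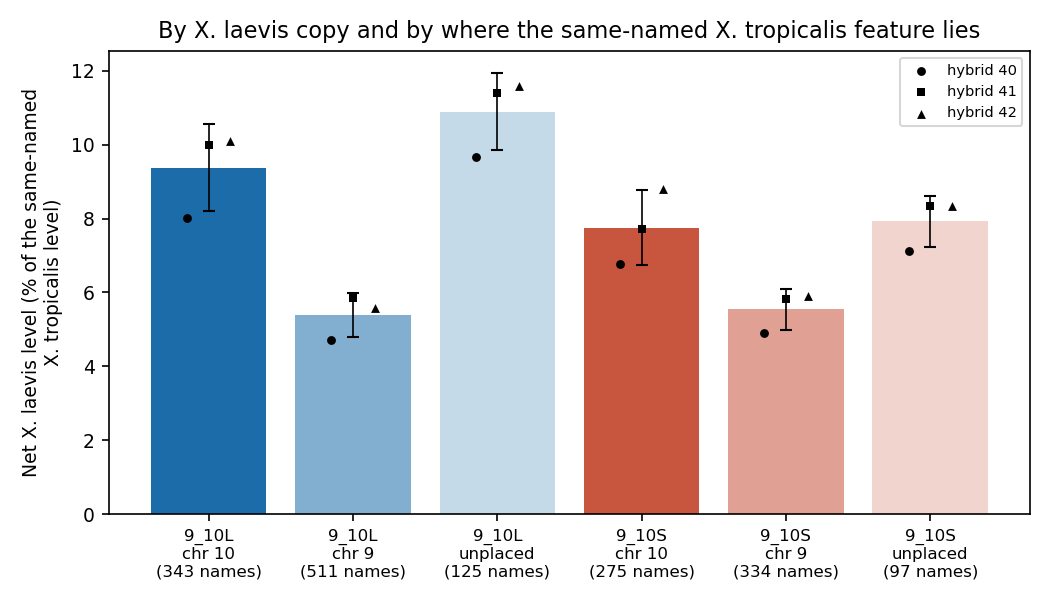
Bars show the summed net X. laevis level as a percent of the summed level of the same-named X. tropicalis features in the same hybrid library, for 9_10L (blue) and 9_10S (red) members grouped by where the X. tropicalis feature lies; symbols are the 3 hybrid libraries and error bars the SD. On both copies each library's value for chromosome 10 lies above its value for chromosome 9, with means of 9.38% and 5.38% on L and 7.76% and 5.54% on S.

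Within a library, the percent for 10 over that for 9 was 1.74-fold on L (log2 0.80 ± 0.05 SD) and 1.40-fold on S (log2 0.48 ± 0.09), higher in 3 of 3 libraries each. The exact two-sided sign-flip permutation p was 0.25 for both, the smallest possible. srsf2.L by itself carried 549 of the 2284 CPM net of the L features matched to 10. Without srsf2, chosen for removal after its level was seen, that percent was 7.31% and the log2 ratio for L was 0.44. With the median over names in place of the sum, the log2 ratio was 0.66 on L and 0.02 on S (exact two-sided sign-flip permutation p = 0.75 on S).

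The chromosome 9 side lay low beside other chromosomes by this percent, but not by the share of matched names above background. That share was 43.1% on L, with the other L chromosomes apart from 3L and 4L between 41.9% and 48.3%. On S it was 48.2%, with the others between 44.0% and 52.2%. In percent of the *X. tropicalis* level, the L features matched to 9 were below all 6 other L chromosomes apart from 3L and 4L, which ran from 6.68% to 11.7% (log2 -0.74 against their mean, lower in 3 of 3 libraries). Percents without the highest features were not taken for the other chromosomes, and the part of egg RNA in the percents was not tested. The S features matched to 9 were below 7 of the 8 other S chromosomes, which ran from 5.44% to 10.5% (log2 -0.48 against their mean). The features matched to 10 had log2 differences of 0.06 on L and 0.00 on S from the mean of the others. The exact two-sided sign-flip permutation p was 0.25 for the first 3 of these 4 contrasts and 1 for the S features matched to 10. On L the value for 10 turned round without srsf2: the percent of 7.31% was then below that of 5 of the 6 other L chromosomes (log2 -0.31 against their mean, lower in 3 of 3 libraries, exact two-sided sign-flip permutation p = 0.25). Only 9_10L lost its highest feature here, while the other chromosomes kept theirs. This is not a like comparison, and it shows only how much the value for 10 rested on srsf2.

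The members can also be divided at the boundary in model number, which was itself set from the matched names. Between the last name matched to 10 and the first matched to 9 lay 36 features on 9_10L and 68 on 9_10S. The division falls among these features, so some were placed on each side, and both sides also hold members without a match. For members with a same-named *X. tropicalis* feature, those on scaffolds included, the percent by this division was 9.86% on the side of 10 and 5.36% on the side of 9 on L (log2 0.88), and 7.83% and 5.60% on S (log2 0.48). The net level per feature is another measure, which takes in all 2931 members. On 9_10L the 783 features on the side of 10 had a net level of 5.12, 6.55 and 7.37 CPM per feature. The 887 features on the side of 9 had 2.66, 3.18 and 3.28 CPM (log2 1.05 ± 0.11 SD, exact two-sided sign-flip permutation p = 0.25). Without the 10 highest features of each part the means were 3.63 and 2.16 CPM. On 9_10S the values were 3.78, 4.54 and 5.09 CPM for the 667 features on the side of 10 and 3.61, 4.17 and 4.60 CPM for the 594 on the side of 9 (log2 0.11). Whether the division differs between L and S was not tested.

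**Figure D4:**
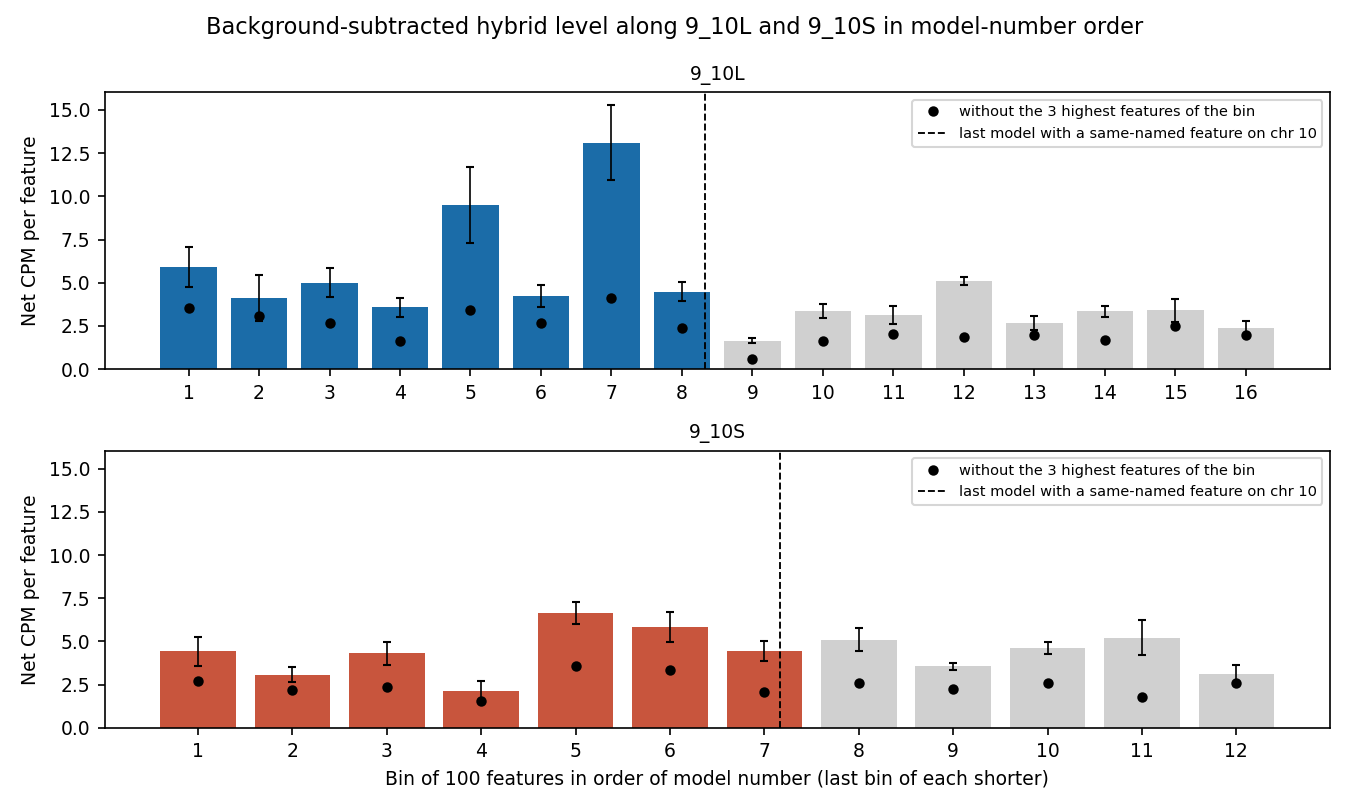
Bars show the mean net level, in CPM per feature, of successive bins of 100 features of 9_10L (top) and 9_10S (bottom) in order of model number, with the SD over the 3 hybrid libraries; coloured bins lie on the side matched to X. tropicalis chromosome 10 and grey bins on the side matched to 9, with a dashed line at the boundary. The line lies past the last name matched to 10 and before the first matched to 9. The last bin is longer, although the axis label calls it shorter, with 170 features on 9_10L and 161 on 9_10S. Dots leave out the 3 highest features of a bin: the 13.1 CPM of bin 7 on 9_10L holds srsf2.L and is 4.09 CPM without them, and bin 9, the first past the boundary, is the lowest on 9_10L at 1.65 CPM.

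Along the number order, every bin of both chromosomes had paternal transcripts above background. The highest bin of 100 features, bin 7 of 9_10L, held srsf2.L and had 13.1 CPM per feature, or 4.09 CPM without its 3 highest features. Bin 5 of 9_10L held Xelaev18043762m and had 9.51 CPM, or 3.44 CPM without its 3 highest. The lowest was bin 9 of 9_10L, just past the boundary, with 1.77, 1.66 and 1.51 CPM in the 3 hybrid libraries. It had 24.0% of its features above background, and without its 3 highest features, ccnt2.L among them, its net level was 0.601 CPM. Over the 14 other chromosomes apart from 3L and 4L, 5 of 183 such bins had as low a share above background and 4 had as low a net level. The lowest bins of 9_10S were bin 4, with 2.11 CPM per feature, and bins 4 and 7, each with 27.0% above background.

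L and S copies of the same gene were compared in the hybrid libraries by edgeR with the library as a block, on counts that are not corrected for length. The L and S counts of a library were scaled apart, with TMM factors over all pairs (1.081 for L and 0.9799 for S in library 41). A log2 difference is therefore relative to the pairs as a whole, and can depart from the ratio of the CPM beside it. Both copies lay on 9_10 for 571 names. Both were above background for 190 (33.3%), L alone for 92 (16.1%), S alone for 81 (14.2%) and neither for 208 (36.4%). Over the 4712 pairs of all chromosomes these shares were 28.1%, 14% for L alone, 20.9% for S alone and 36.9%, and over the 3137 pairs outside 9_10 and chromosomes 3 and 4 they were 32.2%, 15.9%, 17% and 34.9% in the same order. In 287 of the 557 tested pairs both copies had hybrid counts and a background under 10% of the hybrid level. Of these, L was over S in 30 (10.5%) and S over L in 20 (6.97%), beside 10.4% and 12.7% of the 2150 such pairs on all chromosomes. Among the 1515 such pairs outside 9_10 and chromosomes 3 and 4, the shares were 12.3% for L over S and 10.7% for S over L. The share for L over S was near both backgrounds, that for S over L was below both, and neither difference was tested. Pairs with a copy that was silent or nearer its background were left out of these counts, whatever their difference. Among them, krt had 0.262 CPM from L and 97.2 CPM from S (log2 -8.84, edgeR adjusted p = 0.00260). pdgfa had 19.5 CPM from L and 3.72 CPM from S (log2 2.31, edgeR adjusted p = 0.00755). The counts moved with single libraries: without hybrid library 41 they were 9 and 8, and without hybrid library 42 they were 19 and 12. Without TMM factors they were 33 and 18. Over 289 pairs under that limit, the log2 levels of L and S had a Pearson correlation of 0.547, across genes read in the same libraries.

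**Figure D5:**
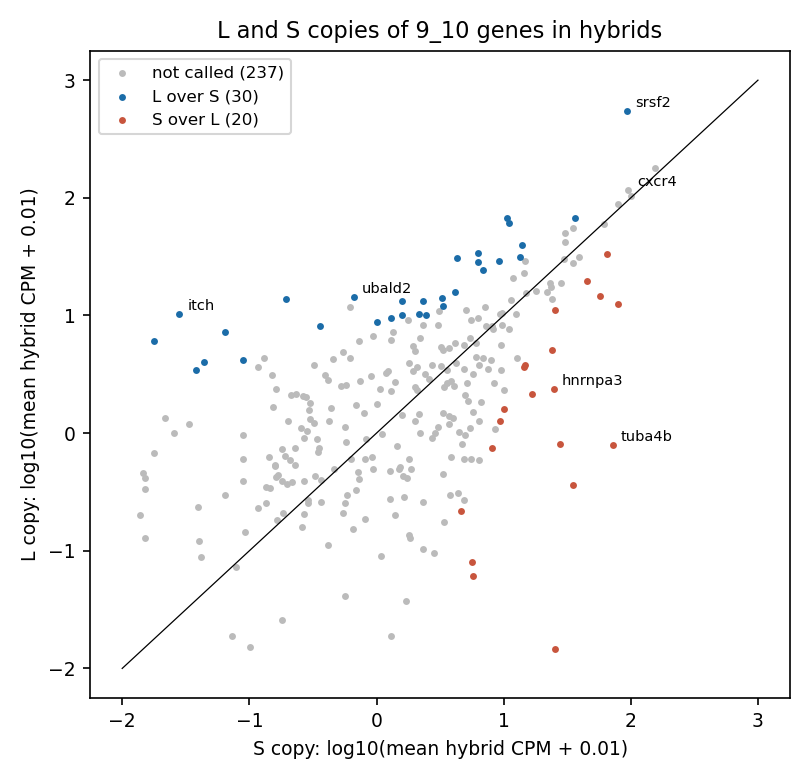
Each point is 1 of 287 homeolog pairs of 9_10, with the mean hybrid level of the L copy (vertical axis) against that of the S copy (horizontal axis), both as log10(CPM + 0.01); the line marks equal counts. Blue points are the 30 pairs called for L over S and red points the 20 called for S over L, and srsf2 is the highest pair called.

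Several of the highest pairs gave no call. ddx5 averaged 180.3 CPM from L and 156 CPM from S (log2 0.12 ± 0.13 SE, edgeR adjusted p = 0.558), and cxcr4 averaged 117 CPM from L and 95.8 CPM from S (log2 0.18 ± 0.16 SE, edgeR adjusted p = 0.462). rbm39, znf750 and foxj1 likewise did not pass the test. Other leading pairs did. srsf2 had 549.6 CPM from L and 93.3 CPM from S (log2 2.48 ± 0.12 SE, edgeR adjusted p = 6.63e-05). Its L copy was above its S copy in each hybrid library. mafb was called the other way, with 12.5 CPM from L and 79.5 CPM from S (log2 -2.86 ± 0.33 SE, edgeR adjusted p = 0.00127).

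The pairs named here were called, under the 10% background limit, and had symbols and over 10 CPM from either copy. Those with the largest log2 difference towards L were itch, ubald2, pcif1, gs17 and ccnf. The S level was 0.175% of the L level for itch, 4.51% for ubald2 and between 11.9% and 15.7% for the other 3. itch, a ubiquitin ligase, had 12.9, 8.04 and 10.1 CPM from L and 0.0539, 0 and 0 CPM from S (log2 9.53 ± 1.33 SE, edgeR adjusted p = 0.00295). gs17 had 51.0, 70.7 and 80.9 CPM from L and 5.55, 12 and 14.2 CPM from S. ccnf, cyclin F, averaged 30.9 CPM from L and 4.28 CPM from S. ubald2, with 14.4 CPM from L and 0.650 CPM from S, and pcif1, an mRNA cap methyltransferase with 13.2 CPM from L and 1.57 CPM from S, were also called, but lost the call without hybrid library 41 (edgeR adjusted p = 0.167 and 0.0696).

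In the other direction, tuba4b, an alpha tubulin, had 0.350, 1.46 and 0.525 CPM from L and 58.6, 53.5 and 104 CPM from S (log2 -6.83 ± 0.59 SE, edgeR adjusted p = 0.000354). Tubulin genes share long stretches of sequence, so reads may have been placed on other members of the family. fbxl20-like, an F-box protein, averaged 0.355 CPM from L and 35.4 CPM from S, and e4f1, a zinc finger protein, 0.802 CPM from L and 27.6 CPM from S. hnrnpa3 averaged 2.34 CPM from L and 24.7 CPM from S. stard3, a sterol carrier of endosomes, averaged 2.16 CPM from L and 16.7 CPM from S, and lost its call without hybrid library 41 or 42 (edgeR adjusted p = 0.0634 and 0.0622).

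Of the 1190 members matched to 9 or 10 whose *X. tropicalis* feature reached 1 CPM in hybrids, 43 (3.61%) had a net level above it, 26 of 698 on L and 17 of 492 on S, and 36 of the 43 were above background by the edgeR test. The examples here are those with the highest percents for each chromosome among symbols called with a net level over 5 CPM. They were picked without the limit of 1 CPM on the *X. tropicalis* feature, so some lie outside the 1190. mafb.S had 78.7, 75.3 and 84.4 CPM in hybrids, while the *X. tropicalis* mafb feature had 4.77, 3.73 and 6.75 CPM in those libraries and 1.96, 0.334 and 0.131 CPM in *X. tropicalis* embryos (log2 2.63, edgeR adjusted p = 0.183). slc26a11.L was several times its *X. tropicalis* feature, which had 15.7, 19.6 and 22.5 CPM in hybrids. plcd3.L, a phospholipase C, averaged 21.2 CPM, against 0.527 CPM on its *X. tropicalis* feature in hybrids. Where one species has a shorter model, counts would differ in the same way, and lengths were not compared.

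For 3 of the 5 such examples matched to 10 the *X. tropicalis* feature was under 1 CPM in hybrids, plcd3.L among them. itga3.S, an integrin subunit, had 6.01, 8.44 and 13.5 CPM in hybrids and 3 counts over the *X. tropicalis* libraries, a ratio of hybrid level to background of 911 with a 95% exact binomial interval from 311 to 4422. Its *X. tropicalis* feature had 0, 0 and 0.0309 CPM in hybrids, against 0.890, 1.25 and 2.77 CPM in *X. tropicalis* embryos. prpsap1.S, a partner of the phosphoribosyl pyrophosphate synthetase, averaged 12.8 CPM in hybrids and also had 3 counts in *X. tropicalis*, a ratio of hybrid level to background of 1248 with an interval from 427 to 6055, and its *X. tropicalis* feature averaged 0.560 CPM in hybrids. Both intervals cover counting error only.

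Among members matched to chromosome 9, pdgfa.L, a growth factor ligand, had 18, 19.8 and 20.6 CPM in hybrids above a background of 6.66, 6.49 and 5.71 CPM. Its *X. tropicalis* feature averaged 0.997 CPM in hybrids, also under 1 CPM, so its percent rests on a low level. pisd-like.2.L averaged 7.50 CPM, snn.L 6.14 CPM and glis2-like.L, a zinc finger factor, 7.09 CPM in hybrids, each between 132% and 173% of its *X. tropicalis* feature. paqr4-like.L averaged 12.7 CPM ± 5.54 in hybrid embryos and 4.84 CPM ± 1.60 in *X. tropicalis*, and its call was lost without hybrid library 41 or *X. tropicalis* library 39 (edgeR adjusted p = 0.217 and 0.0572).

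The *X. tropicalis* genes on chromosomes 9 and 10 gave few calls between the groups. Of 819 tested on chromosome 9, 6 were higher and 23 lower in hybrids, and of 569 on chromosome 10, 1 was higher and 18 lower, by edgeR at an adjusted p under 0.05. Over all 14079 *X. tropicalis* features tested, 0.760% were higher and 3% lower, so neither chromosome was far from the background. Their median log2 change was -0.01 on each chromosome. Of the 41 that were lower, 27 share their name with a member and 20 of those have a member above background, 74.1% of the 27, beside 53.8% of the 896 tested features that share a name with a member. The difference between these shares was not tested.

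Several of the leading paternal genes were among them. The *X. tropicalis* cxcr4 feature had 137, 110.1 and 84.2 CPM in hybrids, against 367, 300.3 and 369 CPM in *X. tropicalis* (log2 -1.66, edgeR adjusted p = 0.000433), in libraries where cxcr4.L averaged 117 CPM and cxcr4.S 95.8 CPM. The *X. tropicalis* krt feature had 42.4, 45.8 and 63.2 CPM in hybrids, against 183, 267 and 238 CPM in *X. tropicalis* (log2 -2.20, edgeR adjusted p = 0.000159), while krt.S averaged 97.2 CPM in hybrids and krt.L 0.262 CPM. The *X. tropicalis* srsf6 feature was lower by the same test (log2 -0.85, edgeR adjusted p = 0.00237), and so was that of ccnt2 (log2 -0.64, edgeR adjusted p = 0.0392). Whether reads of one species were counted on the other in these pairs was not tested.

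Among features with a symbol, the largest falls were those of hoxd1, pgp and myt1. The *X. tropicalis* hoxd1 feature, a Hox gene that responds to retinoic acid, had 0.445, 1.82 and 2.49 CPM in hybrids, against 17.4, 18.5 and 14.8 CPM in *X. tropicalis* (log2 -3.43, edgeR adjusted p = 0.00634), beside 0.953 CPM on hoxd1.L in hybrids. pgp, a phosphatase of glycolytic by-products, averaged 0.698 CPM in hybrid embryos and 6.61 CPM in *X. tropicalis*. myt1, a zinc finger factor of neurogenesis, averaged 2.13 CPM in hybrid embryos and 20.0 CPM in *X. tropicalis*, and ag1, a cement gland gene, 8.03 CPM in hybrid embryos and 41 CPM in *X. tropicalis*. The calls of pgp and myt1 were lost in some fits without a library (edgeR adjusted p up to 0.0671 for pgp and 0.0964 for myt1).

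Of the 7 rises, 6 belong to features with a symbol, and the model Xetrov90024069m averaged 2.37 CPM in hybrids with no count in *X. tropicalis*. Among the 6, the log2 change was largest for lss, the lanosterol synthase of cholesterol synthesis, with 25, 22 and 20.1 CPM in hybrids, against 3.44, 1.01 and 2.86 CPM in *X. tropicalis* (log2 3.18 ± 0.44 SE, edgeR adjusted p = 0.00233). Its paternal copy lss.S, the only member listed under that name, was near 0, at 0.0309 CPM in hybrids. Whether *X. laevis* reads were counted on the *X. tropicalis* features that rose was not tested, and no library of *X. laevis* alone was at hand. nt5m, a mitochondrial nucleotidase, averaged 25.4 CPM in hybrid embryos and 7.96 CPM in *X. tropicalis*. dapl1 averaged 48.9 CPM in hybrid embryos and 25.1 CPM in *X. tropicalis*, dctpp1, a dCTP pyrophosphatase, 267 CPM in hybrid embryos and 158 CPM in *X. tropicalis*, and lsm12 121 CPM in hybrid embryos and 78.8 CPM in *X. tropicalis*. The calls of nt5m, dapl1, dctpp1 and lsm12 were each lost in at least 3 of the 6 fits without a library.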

How the data were processed

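The authors deposited raw counts per transcript model for 6 libraries, in a table of 45244 features of both species, and no normalized values were used. BWA 0.7.10 is listed in the submitters' processing notes. What program counted the reads, with which strand setting and against which builds, is not given in the sources used here. How a read that fits both species, or both L and S, was counted is likewise not stated. Groups came from the labels, and each column was mapped by its name to 1 library. The series text calls the libraries biological replicates. No pair of replicates agreed within counting noise over the members (chi-square per degree of freedom at least 40.3), so each library was kept as its own.

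Each *X. laevis* feature with at least 10 counts summed over the 6 libraries entered edgeR's quasi-likelihood fit and test (version 4.0.16, limma 3.58.1, R 4.3.3), hybrid over *X. tropicalis*, scaled by TMM factors computed on *X. tropicalis* features, with Benjamini-Hochberg adjustment at 0.05 over 24726 features. *X. tropicalis* features were tested alike after edgeR's own filter (14079 tested), and homeologs with the library as a block (4650 pairs). For homeologs, TMM factors were taken over all pairs, with L and S of a library as separate columns. Net levels, percents, exact tests and figures used Python 3.11.15, numpy 2.4.6, pandas 2.3.3, scipy 1.17.1 and matplotlib 3.10.9. The fits were run on simulated data with known changes. For *X. laevis* and *X. tropicalis* features that simulation used a smaller variation than these data have. It therefore does not measure how reliable the calls are here. The biological coefficient of variation common to all features was 1.32 for *X. laevis* features, 0.649 for *X. tropicalis* features and 1.05 for homeologs, which limits the precision of single low features. Floors of 3 counts and 95% exact binomial intervals cover counting error only, since PCR copies are not independent molecules.

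Genes named are those with symbols: the 10 highest called members of each copy, the 4 with the highest background, up to 4 lower in hybrids, the 5 pairs with the largest difference each way at over 10 CPM and background under 10%, the 5 highest percents for each *X. tropicalis* chromosome, and the 5 largest changes each way among *X. tropicalis* features. Members of gene lists, and features without symbols, were chosen once their values had been seen. The choice of these chromosomes, and of the lists and tests, was made with earlier results of these data known. Species and chromosome labels alone then set the members. Alternatives were DESeq2 1.42.0, other filters and scalings, other background limits, and leaving out each library. Human gene names were read from the count table, and no other table of human gene names was used.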

Additional observations from a re-analysis of the deposited data

How the results depend on the processing

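The net levels, the percents and their log2 contrasts kept their direction in all 6 fits without a library, with 9_10L between 4.37 and 5 CPM per feature, 9_10S between 4.11 and 4.64 CPM, the log2 ratio for 10 over 9 between 0.77 and 0.82 on L and between 0.44 and 0.52 on S. The mean log2 ratio for 10 over 9 on L stayed positive under every alternative run on it, down to 0.44 without srsf2. On S it fell to 0.02 ± 0.05 SD with the median over names (exact two-sided sign-flip permutation p = 0.75). By that measure S showed no clear difference between 10 and 9.

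Other choices moved the values. Without background subtraction the net level was 6.22 CPM per feature for 9_10L and 5.57 CPM for 9_10S, and the percents were 10.8% for L matched to 10, 7.44% for L matched to 9 and 6.71% for S matched to 9. With features of background under 1% alone, the net level was 3.07 CPM for 9_10L and 2.94 CPM for 9_10S, and without the 10 highest features 3.30 and 3.51 CPM. Those 10 left out, 9_10S stood 0.03 above the other S chromosomes and 0.10 above 9_10L on the log2 scale. With the median over names the percents were 4.20% and 2.65% for L and 3% and 2.95% for S, matched to 10 and to 9 in that order. Without the 10 highest *X. tropicalis* features they were 6.38% for L matched to 9, 9.07% for S matched to 10 and 7.14% for S matched to 9. Without srsf2, L matched to 10 was 7.31%. The log2 ratio of S over L, -0.27 for names matched to 10, was 0.04 without the 10 highest *X. tropicalis* features and 0.04 without srsf2, and that for names matched to 9, 0.04, was -0.15 without background subtraction.

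With a filter of 5 CPM in 3 libraries, which tested 304 and 217 members, 206 features of 9_10L and 161 of 9_10S were above background. DESeq2 called 62 pairs for L over S and 55 for S over L, and 39 *X. tropicalis* features of chromosomes 9 and 10 as higher and 92 as lower in hybrids. Without a filter those *X. tropicalis* counts were 19 and 64. Without 1 library, L over S ran from 9 pairs (without hybrid library 41) to 30, S over L from 8 (without hybrid library 41) to 15, the higher *X. tropicalis* features from 2 (without hybrid library 41) to 15 (without hybrid library 40), and the lower ones from 20 (without *X. tropicalis* library 39) to 46. The cause was not tested. Of 70 results for named genes, 54 kept direction and call under every alternative run. The log2 difference of parn.L, not called, ran from -0.16 to 0.00 and that of tm9sf4.L, not called, from -0.27 to 0.16 without 1 library.

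No paired analysis was run, because the labels do not say whether any hybrid and *X. tropicalis* libraries belong together. With 3 libraries a group, exact tests over libraries cannot reach 0.05, p-values cover only the spread among these libraries, and the low counts of most members limit the calls.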
